A study of Mus musculus with 8 samples.

Results

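The comparison described here sets macrophages given PAM3 against untreated macrophages in maps of acetylated histone H4. It rests on 4 of the 8 libraries of the series, 2 with PAM3 and 2 without, which were taken by their labels. All 8 libraries came from bone-marrow-derived macrophages (BMDM), cells grown from bone marrow precursors, of C57BL/6 mice. The untreated group received neither PAM3 nor 25HC, and the PAM3 group received PAM3 alone. The other 4 libraries came from cells given 25HC, or 25HC and then PAM3, and show the same genes and regions in other libraries and enter the estimate of spread behind every gene test. Mice A and B each gave 1 library per group, so the same 2 animals gave every group. The stimulation time in the labels, which carries no unit, is 0 without PAM3 and 18 with it, so an effect of PAM3 and an effect of that time cannot be told apart. The labels give no age or sex.

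Acetyl groups on the tail of histone H4 accompany open, active promoters and enhancers, and chromatin immunoprecipitation followed by sequencing maps where they sit. PAM3, short for PAM3CSK4, is a synthetic triacylated lipopeptide that mimics bacterial lipoproteins and is sensed by the receptor pair of Toll-like receptors TLR1 and TLR2. That pair signals through the adaptor MyD88 to the transcription factors NF-κB and AP-1, which in macrophages switch on cytokine, antimicrobial and metabolic genes, while feedback inhibitors limit the response.

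The files are lists of peaks, stretches where the authors' peak caller found acetylation above background, so the measure throughout is called length, the number of bp under peaks. It says how far acetylation extended, not how strong it was, and the read depth behind it is unknown. The untreated lists covered 68.4 Mb in mouse A and 65.4 Mb in mouse B, and the PAM3 lists covered 56.6 Mb in mouse A and 72.4 Mb in mouse B. The PAM3 libraries were thus the lowest and the highest of the 4, and the groups overlapped. Covered length was 64.5 ± 11.2 Mb with PAM3 and 66.9 ± 2.15 Mb without (SD, n = 2 each; two-sided exact permutation test, p = 1, where 2 against 2 cannot give less than 0.333). PAM3 B had 12373 called bins of 1 kb that no other of the 4 libraries had, and PAM3 A lacked 6419 bins that the other 3 had. With 2 libraries per group from the same animals, p-values measure only the spread between these samples.

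At some transcription start sites the whole window gained or lost its peak. A start window runs from 250 bases before a RefSeq start to 50 bases after it (300 bases, GRCm38.p6), and was called where peaks covered at least 150 bases. Of 21263 windows of 17492 genes, 179 (0.842%) were called in both PAM3 libraries and neither untreated one, and 302 (1.42%) in both untreated libraries and neither PAM3 one. Among them 24 windows of 23 genes were covered from end to end in all 4 libraries with PAM3, 25HC-treated cells included, and had no peak in the 4 without it. Those genes included the antimicrobial genes Lcn2 and Camp, Acod1, which encodes the enzyme that makes itaconate, the cytokine gene Tnf, the lectin-like receptor gene Klra2 and N4bp1, an inhibitor of NF-κB signalling. The reverse pattern held for 18 windows of 17 genes, among them Siglech, a lectin gene of plasmacytoid dendritic cells and some macrophages, the mitotic kinase gene Cdk1, the erythropoietin receptor gene Epor and Bcl2l11, which encodes the death-promoting protein BIM. Both patterns combine labels of 8 libraries, of which the 4 with 25HC did not enter the choice of gained and lost windows.

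The start windows of 6 genes are printed because they show where the change sat: Lcn2 (chr2:32387690-32387989, minus strand), Camp (chr9:109849407-109849706, minus strand), Acod1 (chr14:103046762-103047061, plus strand) and Tnf (chr17:35201958-35202257, minus strand), which gained acetylation, and Siglech (chr7:55767934-55768233, plus strand) and Cdk1 (chr10:69352863-69353162, minus strand), which lost it. They are read 5′ to 3′ along the gene, from RefSeq. Capitals mark matches, on either strand, to an NF-κB-type motif (GGANTTTCC), an AP-1 motif (TGANTCA), a C/EBP-type motif (TTGCNNAA), a PU.1-type motif (GAGGAAGT) or a TATA box (TATAAA).
Lcn2: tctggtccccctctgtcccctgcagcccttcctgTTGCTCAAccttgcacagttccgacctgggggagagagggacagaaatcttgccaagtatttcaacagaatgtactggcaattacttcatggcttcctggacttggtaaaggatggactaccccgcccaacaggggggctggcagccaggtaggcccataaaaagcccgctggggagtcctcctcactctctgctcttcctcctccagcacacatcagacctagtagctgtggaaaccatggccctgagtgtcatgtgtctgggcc
Camp: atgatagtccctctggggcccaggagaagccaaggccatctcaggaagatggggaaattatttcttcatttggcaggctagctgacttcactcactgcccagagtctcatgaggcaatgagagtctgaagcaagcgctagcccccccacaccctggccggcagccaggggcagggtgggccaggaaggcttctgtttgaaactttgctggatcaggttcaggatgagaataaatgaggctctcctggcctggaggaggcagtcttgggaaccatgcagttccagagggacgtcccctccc
Acod1: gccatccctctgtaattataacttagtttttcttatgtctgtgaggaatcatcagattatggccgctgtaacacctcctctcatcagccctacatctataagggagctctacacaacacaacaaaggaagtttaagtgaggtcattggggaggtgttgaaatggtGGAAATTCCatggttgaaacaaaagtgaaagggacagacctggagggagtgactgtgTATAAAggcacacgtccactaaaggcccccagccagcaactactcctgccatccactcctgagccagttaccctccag
Tnf: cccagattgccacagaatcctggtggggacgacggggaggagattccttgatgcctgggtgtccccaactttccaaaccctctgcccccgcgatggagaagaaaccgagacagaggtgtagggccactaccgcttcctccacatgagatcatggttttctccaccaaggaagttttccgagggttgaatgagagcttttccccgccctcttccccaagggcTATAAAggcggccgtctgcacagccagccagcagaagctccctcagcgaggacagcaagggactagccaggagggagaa
Siglech: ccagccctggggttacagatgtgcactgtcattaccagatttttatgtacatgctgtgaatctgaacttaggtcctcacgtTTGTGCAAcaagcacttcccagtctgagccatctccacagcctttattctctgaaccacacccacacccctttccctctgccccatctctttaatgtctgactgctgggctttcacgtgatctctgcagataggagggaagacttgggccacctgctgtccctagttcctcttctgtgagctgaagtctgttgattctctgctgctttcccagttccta
Cdk1: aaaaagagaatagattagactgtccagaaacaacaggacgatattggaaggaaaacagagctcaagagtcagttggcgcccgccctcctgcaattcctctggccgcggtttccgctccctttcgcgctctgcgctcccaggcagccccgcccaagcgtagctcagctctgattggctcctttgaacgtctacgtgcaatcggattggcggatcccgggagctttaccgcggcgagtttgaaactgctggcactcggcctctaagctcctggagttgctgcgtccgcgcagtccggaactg
Acod1 held an NF-κB-type match at -85 from its start site and a TATA box at -28, and Tnf held a TATA box at -29. Lcn2 held a C/EBP-type match at -216 and Siglech one at -169, while none of the 5 motifs was found in the windows of Camp and Cdk1.

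At Lcn2 the peak with PAM3 ran from -2067 to 646 relative to the start in mouse A and from -2009 to 1003 in mouse B. Untreated cells had no peak there, and their nearest peaks began at 5122 and 5104 downstream. At Tnf untreated cells already had a peak over the gene, beginning 81 and 77 bases after the start in mice A and B. With PAM3 it began at -1042 and -1182, so acetylation spread upstream across the promoter. At Camp the whole window of the gene with its flanks held a single peak with PAM3, of 1518 bp in mouse A and 1706 bp in mouse B. Cdk1 changed the other way: its untreated peaks began at -509 and -547, and with PAM3 the main peaks began 1081 and 709 bases after it.

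**Figure D1:**
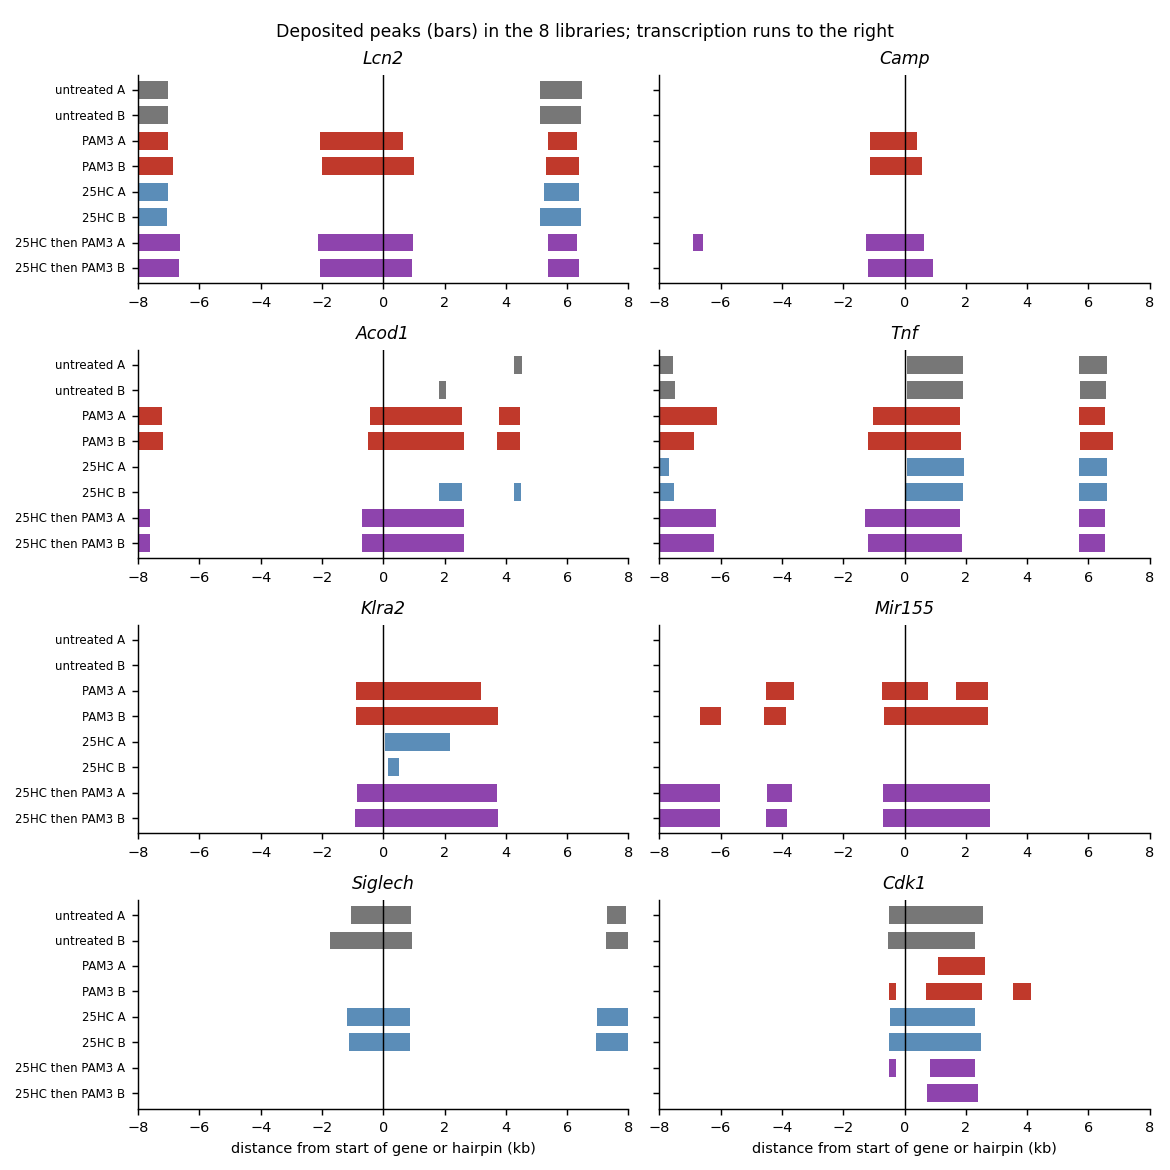
Peaks (bars) in each of the 8 libraries around the starts of 7 genes and of the Mir155 hairpin, with distance along the direction of transcription in kb on the x axis and 1 row per library. Bars cross the line at 0 in all 4 libraries with PAM3 and in none without it at Lcn2, Camp, Acod1, Tnf, Klra2 and Mir155, and the reverse holds at Siglech and Cdk1.

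Of the 674 genes in the 29 pathway and family lists used below, 513 had a start window. Among their 627 windows 18 were gained (2.87%) and 22 lost (3.51%), beside 0.842% and 1.42% over all windows. Apart from the genes above, gained windows with 300 bases in both PAM3 libraries included those of the glycolytic gene Aldoa (10 and 46 bases untreated), the TLR adaptor gene Ticam1 (77 and 63), the lysosomal lipase gene Lipa (54 and 46), the TLR chaperone gene Cnpy3 (62 and 41) and Gas6, a bridge between dying cells and phagocytes (7 and 0). For Ticam1 and Lipa the window was also full in both 25HC then PAM3 libraries and had 60 bases or less in both 25HC ones. The Aldoa window was full in both 25HC then PAM3 libraries as well. With 25HC it had 202 bases in mouse A and 53 in mouse B, so in mouse A it already counted as called. The same was true with 25HC of Cnpy3 in mouse B (300 bases) and of Gas6 in mouse A (253 bases). Gpi1, Ctsd and Tnfrsf1b gained a full window with PAM3 alone, and both libraries given 25HC first had 29 bases or less there. Lost windows with 300 bases in both untreated libraries and 0 in both PAM3 ones included those of Irf8, a factor of macrophage and dendritic cell fate, Cfd, a complement protease, Clec1b, a platelet and myeloid lectin, Nfkbid, a nuclear regulator of NF-κB, Fcgr3, an antibody receptor, and Cd36, a lipid scavenger receptor. At Fcgr3 and Nfkbid both 25HC then PAM3 libraries still had 300 bases, and at Cd36 they had 300 as well. The Cfd and Clec1b windows were already at 0 in both 25HC libraries. One start window of Apoe, the lipid carrier of macrophages, went from 300 and 300 bases to 0 and 0.

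Short motifs were counted in the gained and lost windows as a description. The AP-1 motif was in 8.94% of gained, 4.64% of lost and 6.99% of all windows. It was in 9.66% of windows called in none of the 4 libraries and in 4.28% of those called in all 4. The C/EBP-type motif was in 14.5% of gained, 9.60% of lost and 10.2% of all windows. Its share was 12.7% in windows called in none and 7.86% in those called in all 4. An NF-κB-type match was in 1 gained window (0.559%), in 1.32% of lost and in 1.28% of all windows. GC boxes (GGGCGG) were in 61.5% of gained and 59.6% of lost against 46.2% of all windows, and in 68.2% of the windows called in all 4 libraries. The median number of CpG was 17 in gained and 18 in lost windows, against 13 in all windows, 22 in those called in all 4 libraries and 4 in those called in none.

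Across whole genes, called length was summed over each protein-coding gene body with 5 kb on either side, and log2 values are log2 of bp plus 500 with the library median subtracted. Of 14589 genes with a mean of at least 500 bp, 276 (1.89%) rose and 288 (1.97%) fell with PAM3 at an adjusted p under 0.05 (limma), and the median change of all genes was -0.01. Neighbouring genes can share peaks, and the called genes formed 253 rising and 270 falling loci. Before any test, both PAM3 values lay above both untreated ones in 17.0% of genes and below them in 30.2%. At an unadjusted p under 0.05, 9.09% of genes were higher and 10.1% lower. With the mouse as a block 85 rose and 83 fell. When only the 4 libraries were fitted, 0 genes passed (limma, 2520 at unadjusted p under 0.05), with a smallest adjusted p of 0.0712. All 564 called genes kept an unadjusted p under 0.05 there (limma). They were called from the same values of these libraries, so this adds no support. The reported fit estimates the spread from all 8 libraries, and without 25HC A or 25HC B it called 185 or 188 genes in place of 564. In 36 rising genes both untreated libraries were at 0 and in 58 falling genes both PAM3 libraries were at 0, and for such genes the called lengths are given without a log2 change. Of the 564 genes, 51 (33 rising, 18 falling) passed in all 9 further fits, with the mouse as a block and without each of the 8 libraries in turn. Genes said below to hold in all 9 fits are among these.

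**Figure D2:**
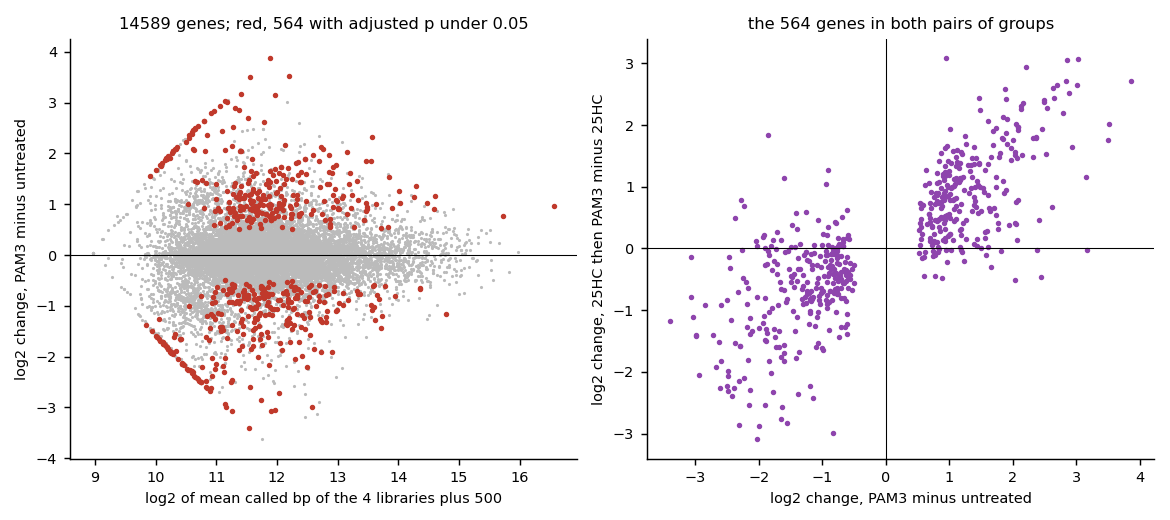
Left, log2 change of each of 14589 genes with PAM3 (y axis) against the log2 of its mean called length in the 4 libraries (x axis), with 564 genes at an adjusted p under 0.05 in red; the straight edges are genes at 0 bp in 1 group. Right, the same 564 genes with the change in the libraries given 25HC on the y axis, where 493 points have the same sign on both axes.

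Of 18 TLR and co-receptor genes 1 fell, 0 rose and 17 did not pass, with 2 higher and 2 lower at an unadjusted p under 0.05 and a median of -0.03. The receptors of the ligand itself did not pass: Tlr2 had 2943 and 2388 bp untreated (mice A and B) and 3615 and 5015 bp with PAM3 (log2 0.64, adjusted p = 0.0773). Tlr1 had 4905 and 4415 bp against 5397 and 6225 (log2 0.34, adjusted p = 0.147), and Tlr6, which pairs with TLR2 for diacylated lipopeptides, 4648 and 5052 against 5204 and 5465 (log2 0.17, adjusted p = 0.458). Both PAM3 values lay above both untreated values in each of these 3 genes. Tlr4, the receptor gene for lipopolysaccharide (chromosome 4, 66827551 to 66846581), went from 6110 and 6283 to 2264 and 2943 bp, a log2 change of -1.07 ± 0.11 (SE, adjusted p = 0.016). It passed with the block (0.0454) and in 6 of the 8 fits without 1 library, with 0.0583 at most, without untreated A, and without flanks it reached 0.0502. In cells given 25HC first, Tlr4 went the other way, from 6610 and 6822 to 8609 and 10651 bp (log2 0.46, adjusted p = 0.0809), and the difference between the 2 changes had an adjusted p of 0.0734.

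None of the 26 adaptor and kinase genes of the MyD88 and TRIF pathways passed (limma, 9 at unadjusted p under 0.05, 7 of them higher), nor did the 19 NF-κB subunit and feedback genes (6 at unadjusted p under 0.05, 3 of them higher). Their medians were 0.11 and 0.14 on the log2 scale, against -0.01 for all genes. Of all genes 9.09% were higher and 10.1% lower at that unadjusted p. Myd88 had 3235 and 3517 bp untreated and 3350 and 4024 with PAM3 (log2 0.15, adjusted p = 0.549). Nfkbia, which encodes the NF-κB inhibitor IκBα, had 2782 and 2864 against 3602 and 4671 bp (log2 0.52, adjusted p = 0.0563). Traf6, the ubiquitin ligase downstream of MyD88, had a log2 change of 0.46 (adjusted p = 0.0826), and Traf3, an adaptor that restrains inflammatory signalling, one of -0.56 (adjusted p = 0.0954). AP-1, ATF and immediate-early genes also gave 0 of 24 (limma, 3 at unadjusted p under 0.05, median -0.01), as did interferon response genes with 0 of 27 (limma, 5 at unadjusted p under 0.05, median 0.07).

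Among 27 cytokine genes 0 passed (limma, 5 at unadjusted p under 0.05, all higher, median 0.09). Tnf had 2756 and 2665 bp untreated and 3686 and 4099 with PAM3 (log2 0.50, adjusted p = 0.0516), and its gene body without flanks had a log2 change of 0.03. Il12a, a subunit of interleukin 12, had 380 and 356 against 1156 and 3138 bp (log2 1.55, adjusted p = 0.0594). Il1b had 4146 and 5887 against 3203 and 5884 bp (log2 -0.12, adjusted p = 0.886) and Il6 had 1376 and 1130 against 1283 and 2696 bp (log2 0.50, adjusted p = 0.292), and in both the groups overlapped. In the libraries given 25HC first, Il6 rose from 1369 and 1324 to 4166 and 4902 bp (log2 1.42, adjusted p = 0.0279). Of 21 chemokine genes Ccl7, a monocyte attractant, rose, from 2382 and 1756 to 3834 and 5183 bp (log2 1.01 ± 0.16 SE, adjusted p = 0.0361). Its call ended with the block (0.0738), in each of the 8 fits without 1 library (up to 0.108, without PAM3 B) and when the flanks were left out (log2 0.39, adjusted p = 0.715).

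Antimicrobial and acute-phase genes had the highest median of the 29 pathway lists (0.48 over 18 tested members), with 6 rising, 1 falling and 11 not passing. Over all genes tested 1.89% rose and 1.97% fell. Lcn2, whose product lipocalin 2 keeps iron from bacteria (chromosome 2, 32384637 to 32387739), went from 1346 and 1337 bp to 3670 and 4105 bp, a log2 change of 1.30 ± 0.10 (SE, adjusted p = 0.0117). Camp, the precursor of the antimicrobial peptide CRAMP (chromosome 9), went from 0 in both mice to 1518 and 1706 bp (adjusted p = 0.016, or 0.0518 without PAM3 B). The serum amyloid genes Saa1, Saa2, Saa3 and Saa4, which encode lipid-binding proteins of the acute phase, lie in 1 locus (chromosome 7, 46711998 to 46754313) with shared windows. Saa4 had 998 and 1007 bp untreated and 3895 and 4269 with PAM3 (log2 1.65 ± 0.09 SE, adjusted p = 0.00997), and Saa2 went from 0 and 0 to 2315 and 4895 bp (adjusted p = 0.0127). Saa1 went from 492 and 120 to 3223 and 5942 bp (log2 2.69, adjusted p = 0.016). Lcn2, Saa1, Saa2 and Saa4 held in all 9 fits, while Saa3 (log2 1.02, adjusted p = 0.0213) reached 0.0541 with the block and 0.0903 without untreated A, and without flanks it had a log2 change of 0.34 (adjusted p = 0.503). Slc40a1, the iron exporter ferroportin, fell from 5376 and 3053 to 1027 and 1258 bp (log2 -1.43, adjusted p = 0.0474). That call ended with the block (0.0529), in 7 of the 8 fits without 1 library (up to 0.14, without PAM3 B) and without flanks (log2 -0.71, adjusted p = 0.288). Ngp and S100a9, granule genes of neutrophils on the same list, had no peak in any of the 4 libraries.

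**Figure D3:**
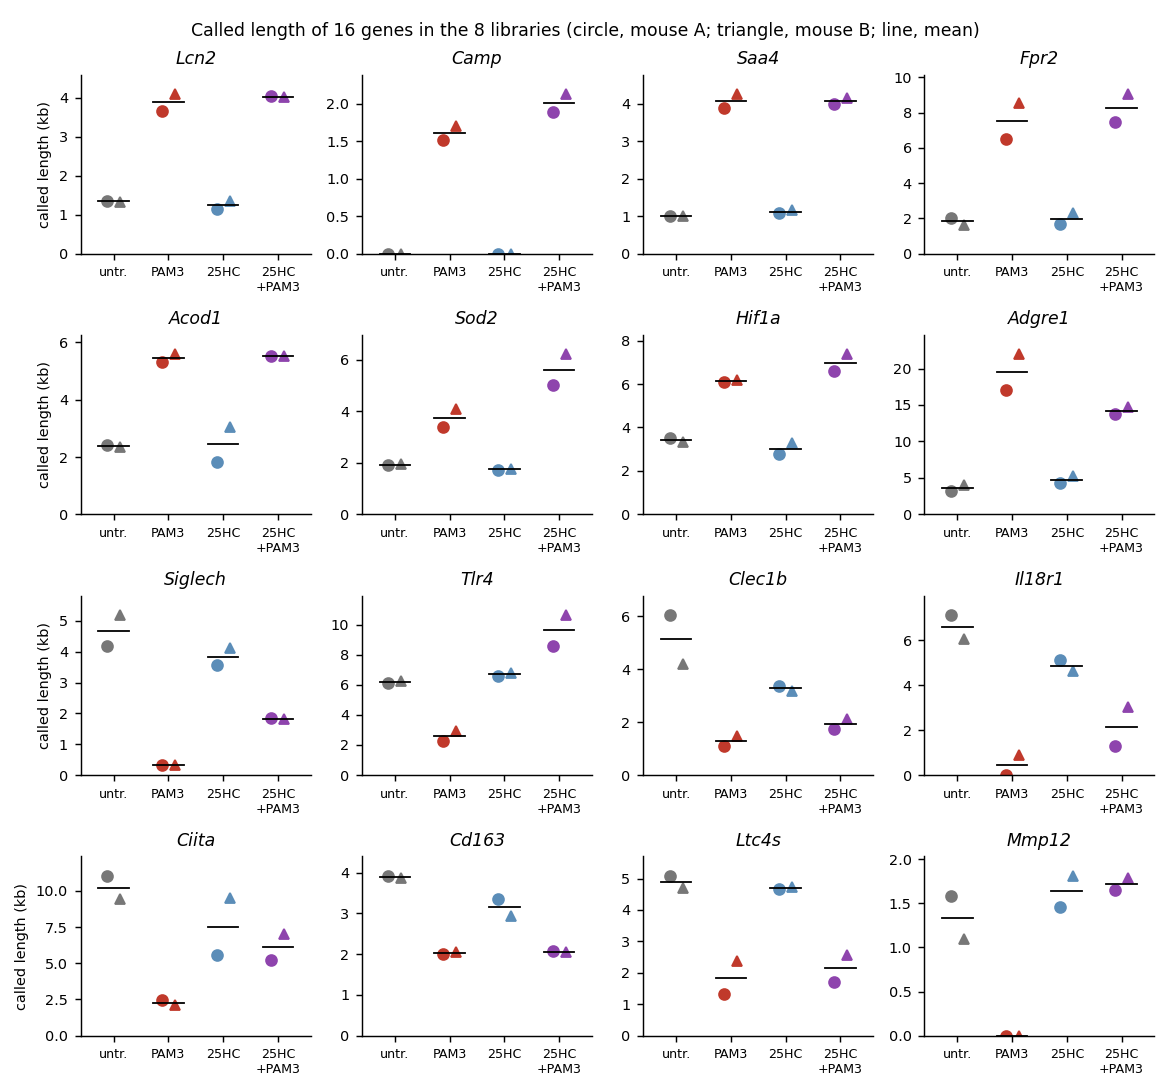
Called length in kb (y axis) of 16 genes in each library, by group on the x axis; circles are mouse A, triangles mouse B and lines the mean of the 2. For Lcn2, Camp, Saa4, Fpr2 and Acod1 both pairs with PAM3 lie above both pairs without it, whereas for Tlr4 and Mmp12 only the group given PAM3 alone is low.

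Receptors for peptides and lipids moved in both directions. Fpr1 and Fpr2, whose receptors sense formylated bacterial peptides, rose side by side on chromosome 17. Fpr1 went from 4651 and 4117 to 9267 and 11073 bp (log2 1.17 ± 0.10 SE, adjusted p = 0.0117) and Fpr2 from 2026 and 1627 to 6496 and 8567 bp (log2 1.83 ± 0.16 SE, adjusted p = 0.0121). Both held in all 9 fits, their windows overlap, and without flanks Fpr2 no longer passed (log2 1.01, adjusted p = 0.161). Gpr34, a lysophospholipid receptor gene on chromosome X, fell from 10907 and 9490 to 219 and 1830 bp (log2 -3.00, adjusted p = 0.045), but not with the block (0.0596), without flanks (0.0673), or in 7 of the 8 fits without 1 library (up to 0.165, without untreated A). Its window shares peaks with that of Cask. The other 20 of 23 receptor genes did not pass.

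Cytokine receptor genes changed in 1 direction only among the calls: 0 of 30 rose and 3 fell, with a median of -0.22. Over all genes tested 1.89% rose and 1.97% fell. At an unadjusted p under 0.05 (limma), 12 were lower and 0 higher, beside 10.1% and 9.09% of all genes. Both PAM3 values lay below both untreated ones in 16 and above them in 1, beside 30.2% and 17.0% of all genes. Il18r1, the receptor for interleukin 18 (chromosome 1), had 7125 and 6073 bp untreated and 0 and 883 with PAM3. Its neighbour Il1rl1, the receptor for interleukin 33, had 7950 and 9018 against 1852 and 3146 bp. The windows of Il18r1 and Il1rl1 overlap, so their falls are not independent of each other. Ifnar2, a chain of the type I interferon receptor, had 12856 and 12591 against 6459 and 7617 bp. Log2 changes of Il18r1, Il1rl1 and Ifnar2 were -3.04, -1.57 and -0.77 (adjusted p = 0.0337, 0.033 and 0.0309). With the block none of the 3 passed (0.0586, 0.0514 and 0.0643), and Il18r1 passed in 4 and Il1rl1 and Ifnar2 in 2 of the 8 fits without 1 library (up to 0.13, without untreated A, 0.11, without untreated B, and 0.12, without untreated A). Without flanks Ifnar2 had an adjusted p of 0.0823.

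Clec1a, Clec1b, Clec7a, Clec9a and Clec12b, which encode C-type lectin receptors and lie together on chromosome 6 (129375513 to 129472785), fell together while Klra2 rose, out of 21 tested. Clec7a, also known as Dectin-1, the receptor for fungal β-glucan, went from 3235 and 3450 to 1071 and 617 bp (log2 -1.49, adjusted p = 0.0476, or 0.0836 with the block and 0.192 without flanks). Clec12b went from 11022 and 7109 to 1465 and 1459 bp (log2 -2.21, adjusted p = 0.0335), and Clec1b from 6042 and 4203 to 1094 and 1459 bp (log2 -1.60, adjusted p = 0.017). Their windows overlap in a chain, so these falls are not independent of each other. Clec1b passed in 7 of the 8 fits without 1 library (0.0527 without PAM3 B) and the other 4 in 1 or 2 (up to 0.158, for Clec7a without untreated A). Klra2 went from 0 and 0 to 4320 and 5671 bp (adjusted p = 0.0306, or 0.0585 with the block and up to 0.11, without untreated A). Siglech (chromosome 7) went from 4180 and 5193 to 325 and 329 bp, a log2 change of -2.60 ± 0.15 (SE, adjusted p = 0.00997) that held in all 9 fits. Trem1, an amplifier of TLR signals, rose from 1569 and 708 to 3302 and 4251 bp (log2 1.47, adjusted p = 0.0382, or 0.0732 with the block and up to 0.121, without PAM3 B), and without flanks it did not pass (0.0867). With peaks kept at −log10 q of 5 or more its log2 change was -0.0913. The authors' −log10 q and −log10 p may not sit on their own peaks, as given under processing. That limit holds for every value below from peaks kept by −log10 q or at equal covered length.

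Of 19 scavenger and phagocytic receptor genes 1 rose, 2 fell and 16 did not pass, with a median of -0.07. At an unadjusted p under 0.05 (limma) 2 were higher and 7 lower, beside 9.09% and 10.1% of all genes. Marco, a scavenger receptor for bacteria and particles, went from 0 and 0 to 2779 and 2914 bp (adjusted p = 0.016, or 0.0506 without PAM3 B). Stab2, an endocytic receptor for hyaluronan, fell from 6896 and 6538 to 1691 and 2845 bp (log2 -1.37, adjusted p = 0.0176, or up to 0.0721 without untreated A). Cd163, the receptor for haemoglobin bound to haptoglobin, went from 3925 and 3868 to 1995 and 2052 bp (log2 -0.75, adjusted p = 0.038). The block ended the call of Cd163 (0.0588), as did 7 of the 8 fits without 1 library (up to 0.144, without untreated A) and the gene body alone (log2 -0.31, adjusted p = 0.296). On the alternative activation list, which holds genes of interleukin-4-stimulated macrophages, Cd163 was the 1 call among 14 tested, and the median was -0.37, the lowest of the pathway lists. There 6 genes were lower and 0 higher at an unadjusted p under 0.05 (limma), beside 10.1% and 9.09% of all genes. Both PAM3 values lay below both untreated ones in 9 and above them in 0, beside 30.2% and 17.0% of all genes.

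In antigen presentation and complement, Ciita, the activator of class II genes, fell from 11048 and 9411 to 2433 and 2097 bp (log2 -1.91, adjusted p = 0.0285). It did not pass with the block (0.0634), without flanks (0.0774) or in 5 of the 8 fits without 1 library (up to 0.11, without untreated A), and the other 21 genes of its list did not pass. The complement regulator gene Cd55b had 0 bp in both untreated libraries and 2128 and 6720 bp with PAM3 (adjusted p = 0.031, or 0.0626 with the block and up to 0.108, without untreated A), and all 4 libraries with 25HC were at 0.

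Most metabolic and redox genes did not pass: 12 of 14 for itaconate, nitric oxide, arginine and tryptophan metabolism (median -0.07), 23 of 25 for redox and metal handling (-0.08) and 24 of 25 for glycolysis and hypoxia (0.07). Acod1, Sod2 and Hif1a rose. Acod1 (chromosome 14) had 2418 and 2356 bp untreated and 5329 and 5579 with PAM3 (log2 1.09, adjusted p = 0.0427). Sod2, the mitochondrial superoxide dismutase that NF-κB induces, had 1904 and 1946 against 3374 and 4070 bp (log2 0.84, adjusted p = 0.0218), and Hif1a, the regulator of glycolysis under hypoxia and inflammation, 3497 and 3351 against 6089 and 6180 bp (log2 0.80, adjusted p = 0.0291). With the block their adjusted p were 0.0842, 0.0504 and 0.0654, and without untreated A 0.156, 0.0917 and 0.108, and without flanks Acod1 had 0.0546. The groups did not overlap in any of the 3, which was true of every called gene and so adds no support. With peaks kept at −log10 q of 5 or more Hif1a had a log2 change of -0.71. Kmo, an enzyme of tryptophan breakdown, had 10100 and 10968 against 5864 and 5893 bp (log2 -0.74, adjusted p = 0.0476), and Ltc4s, which makes leukotriene C4, 5091 and 4699 against 1333 and 2362 bp (log2 -1.19, adjusted p = 0.038). Both calls ended with the block (0.0875 and 0.064), and without flanks Kmo had 0.0631 and Ltc4s was at -0.32 (adjusted p = 0.593). Leaving out 1 library ended the call of Kmo in all 8 fits (up to 0.163, without untreated B) and that of Ltc4s in 7 (up to 0.146, without untreated A). Gpx1, a peroxide-reducing enzyme, fell in its flanked window (log2 -0.63, adjusted p = 0.032, or 0.0684 with the block and up to 0.123, without untreated A) and had a log2 change of 0.04 in the gene body alone.

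Tissue remodelling and survival genes completed the calls in the lists. Mmp12, the macrophage elastase gene, had 1579 and 1090 bp untreated and none with PAM3 (adjusted p = 0.017, or 0.0638 without untreated A), yet 1652 and 1792 bp in the 25HC then PAM3 libraries. Bmp1, a procollagen protease gene, went from 0 and 0 to 2447 and 4139 bp (adjusted p = 0.0109) and held in all 9 fits. Bcl2a1a, Bcl2a1b and Bcl2a1d, survival genes that NF-κB induces, rose by 1.89, 0.71 and 0.80 on the log2 scale (adjusted p = 0.0452, 0.0418 and 0.0418; block, 0.0683, 0.0738 and 0.074). They are near-identical copies, so how reads were split between them is uncertain. Leaving out PAM3 B gave 0.136, 0.116 and 0.121, and without flanks Bcl2a1d had 0.0636. At equal covered length per library Bcl2a1d had a log2 change of -0.35. Adora2a, an adenosine receptor gene that damps inflammation, rose from 2228 and 2530 to 4641 and 4834 bp (log2 0.91, adjusted p = 0.0361, or 0.0643 with the block, 0.0605 without flanks and up to 0.143 without untreated A), but had a log2 change of -0.53 with peaks kept by −log10 q. Rgs16, a brake on G protein signalling, fell from 1561 and 1861 to 578 and 879 bp (log2 -0.81, adjusted p = 0.0316, or 0.06 with the block and up to 0.0996, without untreated B). In the cell cycle list the kinesin gene Kif4 and the repressor gene E2f8 rose (adjusted p = 0.0336 and 0.041; block, 0.0732 and 0.0763; up to 0.0898 without PAM3 B and 0.156 without untreated A). Abca6, a lipid transporter gene, went from 4273 and 2796 to 0 and 0 bp (adjusted p = 0.0117, or 0.0506 without untreated A). Myeloid lineage factors (0 of 26, limma, 5 at unadjusted p under 0.05) and lysosomal genes (0 of 24, limma, 5 at unadjusted p under 0.05) gave no call.

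**Figure D4:**
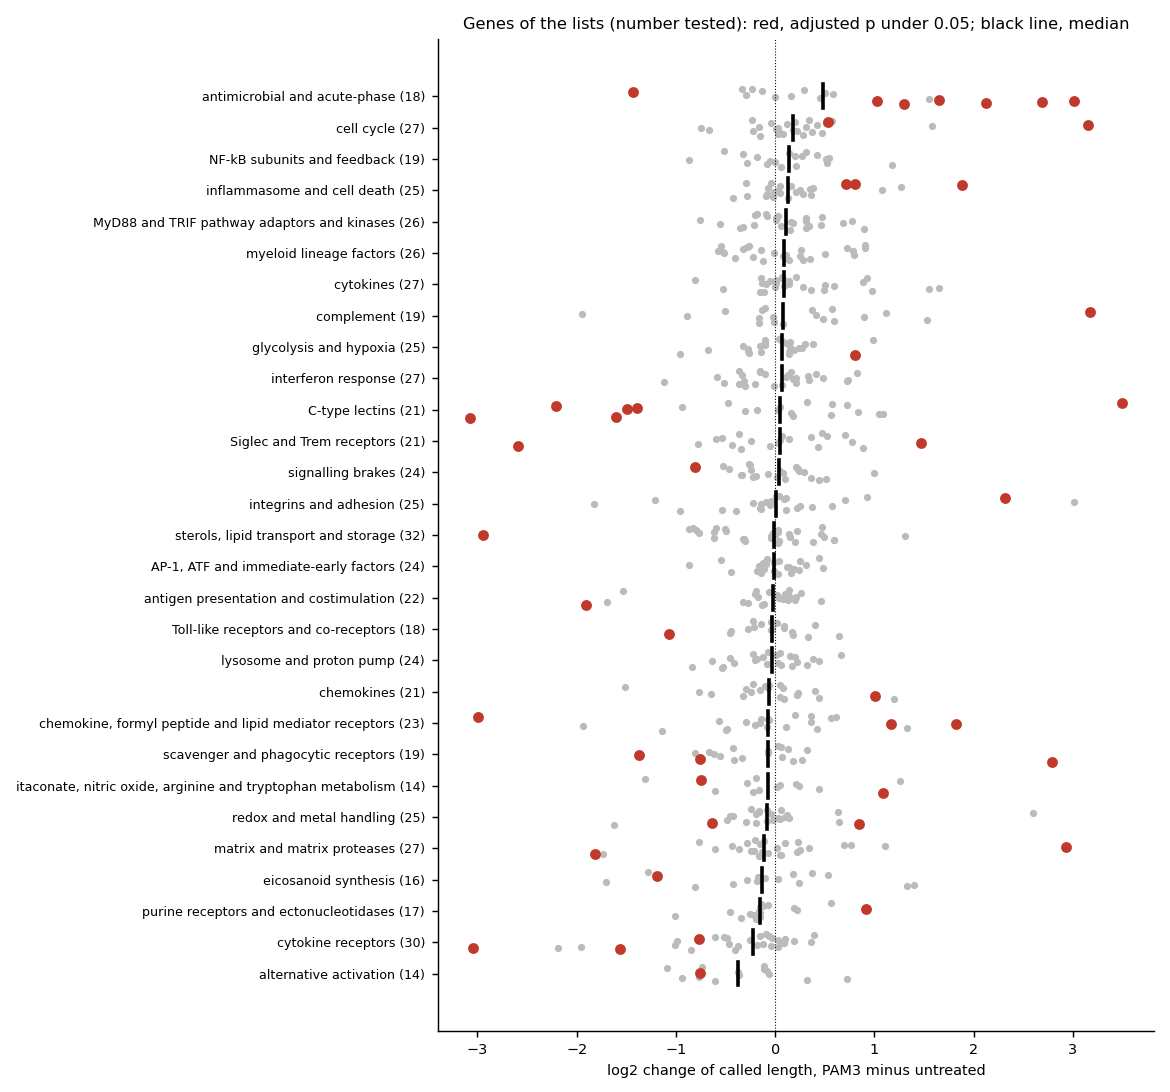
Log2 change with PAM3 (x axis) of every tested gene in 29 pathway and family lists (rows, with the number tested), ordered by median (black line); genes at an adjusted p under 0.05 are red. The antimicrobial and acute-phase list has the highest median, 0.48, and the alternative activation list the lowest, -0.37.

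By the smallest p over all genes, apart from those already named, the rises were Nhs, Zp3, Adgre1, Cd2ap, Rab29, Gfi1b, Lin52, Bms1 and Ip6k1 (adjusted p = 0.00392 to 0.0117), and all held in all 9 fits. Adgre1, which encodes the macrophage marker F4/80 (chromosome 17, 57358581 to 57483529), went from 3247 and 4010 to 17121 and 21938 bp (log2 2.32 ± 0.14 SE), with 9 gained bins and none lost. Cd2ap, an adaptor between receptors and actin, went from 2556 and 2592 to 10803 and 11556 bp (log2 1.97 ± 0.13 SE). Nhs, an actin regulator on chromosome X, and Gfi1b, a repressor of blood cell genes, had 0 bp in all 4 libraries without PAM3, and reached 6011 and 7162 bp and 2180 and 2912 bp with PAM3 alone. Rab29, a small GTPase of lysosomes, was at 0 in the untreated group alone: it had 1466 and 1518 bp with PAM3 but also 2195 and 2361 with 25HC. Bms1, a ribosome assembly factor, was high in the PAM3 group alone, at 3241 and 3583 bp against 1226 to 1290 bp in the 6 other libraries. For Lin52, a cell cycle gene repressor subunit, the gene body alone gave 0.59 (adjusted p = 0.378) where the flanked window gave 1.45.

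The corresponding falls, after Siglech and Abca6, included Adtrp, Mamstr, Lrrc14b, Psmd1, Kcnj6, Tslp, Drosha, Plxnb1 and Dock9 (each adjusted p = 0.0117), which held in all 9 fits as well. Drosha, the nuclease that starts microRNA processing, had 4694 and 5233 bp untreated and 0 and 0 with PAM3, against 3072 and 1606 bp in the 25HC then PAM3 libraries. Psmd1, a subunit of the proteasome cap, had 7263 and 8014 against 1912 and 1866 bp (log2 -1.72 ± 0.14 SE), and 8663 and 7951 bp with 25HC then PAM3. Adtrp, a hydrolase of fatty acid esters, had 9133 and 9453 against 1902 and 2368 bp (log2 -1.85 ± 0.13 SE), and 7630 and 6824 bp with 25HC then PAM3. In these 3 genes the group given PAM3 alone was lower than all 6 other libraries. Plxnb1, a semaphorin receptor gene, had 4309 and 4429 against 690 and 1056 bp. Dock9, an activator of the GTPase Cdc42, had 6073 and 7362 against 1877 and 2202 bp. From 25HC to 25HC then PAM3, Plxnb1 went from 2963 and 2336 to 1839 and 2185 bp (limma, log2 -0.35, adjusted p = 0.256). Dock9 went from 5632 and 6451 to 2680 and 2941 bp there (limma, log2 -1.01, adjusted p = 0.018). Mamstr had an adjusted p of 0.301 without flanks.

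Called genes were then read in the 25HC libraries, which are other libraries of the same 2 mice and share the estimate of spread. From 25HC to 25HC then PAM3, 398 of all 14589 genes tested rose and 335 fell. Of the 276 rising genes 148 (53.6%) also rose there, which is 37.2% of the 398. Of the 288 falling genes 92 (31.9%) also fell, which is 27.5% of the 335 that fell there, and 5 of all 564 passed in the opposite direction. The test of the difference between the 2 changes gave 0 genes (limma, 1438 at unadjusted p under 0.05), with a smallest adjusted p of 0.0734, so genes such as Tlr4, Psmd1 or Drosha are not shown to respond differently after 25HC.

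Region by region, 96070 bins of 1 kb on chromosomes 1 to 19 were called (at least 500 bp covered) in at least 1 of the 4 libraries, and 32803 in all 4. PAM3 gained 5889 bins (6.13%) and lost 7933 (8.26%), called in both libraries of 1 group and neither of the other. Of the gained bins 53.5% had no peak at all in both untreated libraries, and 42.5% of the lost bins had none in both PAM3 libraries. In 16.6% of gained and 21.3% of lost bins a library of the absent group had 400 to 499 bp, just short of the threshold, and in 27.2% and 29.9% a library of the present group had 500 to 599 bp, just past it. Gained bins averaged 111 and 109 bp in the untreated libraries and 780 and 840 bp with PAM3, which the choice of bins fixes. In the libraries that the choice did not use they averaged 182 and 200 bp with 25HC and 539 and 574 bp with 25HC then PAM3. Lost bins averaged 546 and 611 bp with 25HC and 238 and 278 bp with 25HC then PAM3. Of gained bins 34.5% were gained and 0.832% lost again in the 25HC libraries, and of lost bins 30.2% were lost and 1.41% gained again, against 5.38% gained and 5.43% lost among the other called bins.

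**Figure D5:**
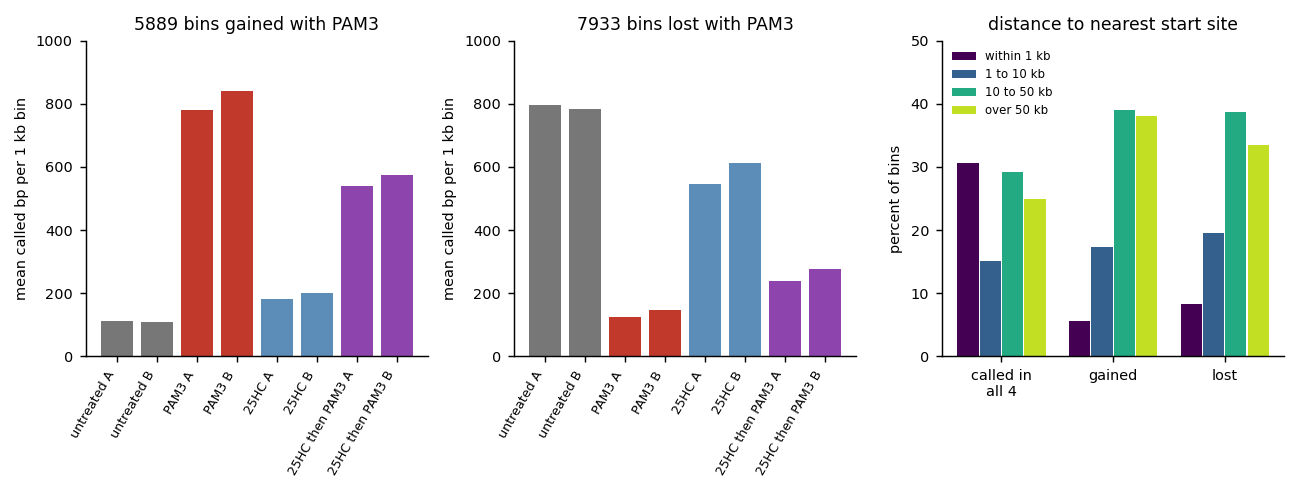
Left and middle, mean called bp per 1 kb bin (y axis) in each of the 8 libraries for the 5889 gained and 7933 lost bins; the first 4 bars of each panel follow from the choice of bins and the last 4 do not. Right, percent of bins by distance to the nearest RefSeq start site: 30.7% of bins called in all 4 libraries lie within 1 kb of a start, against 5.55% of gained and 8.30% of lost bins.

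Most changed bins lay over 1 kb from a gene's start. Within 1 kb of a start were 5.55% of gained and 8.30% of lost bins, against 15.7% of all called bins and 30.7% of those called in all 4, and the median distance was 33.0, 25.3, 22.7 and 13.3 kb (chromosome 18 left out, since the table of starts holds none there). Most changes were short: 4157 of 4951 gained runs and 5901 of 6866 lost runs were single bins. Of the gained and lost runs, 40.6% and 47.3% adjoined a bin called in at least 1 library of the other group. Next to a bin called in all 4 libraries lay 24.2% and 27.4%. Share by chromosome ran from 4.87% to 7.13% for gained and from 7.32% to 9.91% for lost bins.

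The 5 longest gained runs, taken among equal lengths by the larger difference in called bp, had 5 bins (the first 3) or 4, as did other runs not named. They lay in Plekhm1, a lysosome fusion adaptor (chromosome 11, 103369001 to 103374000, 0 and 250 to 4565 and 4718 bp), in Wwox (chromosome 8), 36037 bp from Acsl1, which activates fatty acids (chromosome 8), across the start of Klra2 (chromosome 6) and 11860 bp from Cacna1b (chromosome 2). In the 25HC then PAM3 libraries the Plekhm1, Wwox, Acsl1 and Klra2 runs had at least 3010 bp, and the Cacna1b run 793 and 426 bp. The 5 lost runs chosen in the same way had 4 bins, like others not named, and lay 276300 bp from Hrh4 (chromosome 18), in Trafd1, a negative regulator of TLR signalling (chromosome 5), in Ggta1 (chromosome 2), across the start of the organic anion transporter gene Slco2b1 (chromosome 7, 99705001 to 99709000, 3632 and 3666 to 887 and 0 bp), and in Chp2 (chromosome 7). In the 25HC then PAM3 libraries the Trafd1 and Chp2 runs were at 0.

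The genes with most gained bins were long ones. Lpp, a protein of focal adhesions, held 32 gained and 3 lost bins and went from 70910 and 62161 to 109182 and 143346 bp (log2 0.96 ± 0.10 SE, adjusted p = 0.016, holding in all 9 fits). Gpd2, the mitochondrial glycerol-3-phosphate dehydrogenase, held 11 gained bins and no lost one and went from 4769 and 4705 to 13876 and 22736 bp (log2 1.85, adjusted p = 0.032, or 0.0686 with the block and up to 0.12, without untreated A). Fggy (15 gained bins), Trps1 (11), Ust (11), Sox5 (10) and St7 (9) also rose, whereas Cdk19 (12), Srgap2 (12), Foxp1 (12) and Zeb2 (11) did not pass, with adjusted p from 0.0634 to 0.767. The calls of Fggy, Trps1 and Ust ended with the block (0.0595, 0.074 and 0.0643), and without 1 library Fggy, Trps1, Ust, Sox5 and St7 reached 0.152, 0.156, 0.0886, 0.0766 and 0.0664 at most, without PAM3 B for Ust and St7 and without untreated A for the others. Lost bins were most numerous in Arhgap26 (14), Rad51b (12), Eml6 (12), Cmah (11) and Aopep (11), none of which passed as a gene (adjusted p = 0.0575 to 0.107). Cacnb4 (9 lost bins) and Ankrd55 (8) fell by 1.29 and 1.45 on the log2 scale (adjusted p = 0.016 for each, rising to 0.0582 and 0.0578 without untreated A). Of 20665 genes, 2734 held a gained bin and 3878 a lost one, and 916 held both, 33.5% of the first and 23.6% of the second. Gene length was not taken into account in these shares.

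MicroRNA loci were looked at after the bins had been seen. Of 919 hairpins on chromosomes 1 to 19, 38 (4.13%) had a gained and 59 (6.42%) a lost bin within 5 kb, and 9 and 10 had at least 2. Mir155 (chromosome 16, 84714140 to 84714204), whose product is a TLR-induced microRNA that targets inhibitors of inflammatory signalling, had no peak within 5 kb in untreated cells of either mouse and 3455 and 4115 bp with PAM3. It also had none with 25HC, and 4316 and 4158 bp with 25HC then PAM3, so the 4 libraries with PAM3 and the 4 without did not overlap. A peak crossed the hairpin itself in both PAM3 libraries, from -727 to 776 relative to its start in mouse A and from -673 to 2729 in mouse B. Mir135b (chromosome 1) went from 0 and 0 to 1582 and 1608 bp, with 0 and 0 bp in 25HC and 1165 and 914 bp in 25HC then PAM3. The paired hairpins Mir29b-2 and Mir29c (chromosome 1, 195037040 to 195037634 together) lie inside 1 gained run of 4 bins and had 3153 and 925 bp untreated against 6100 and 5336 bp with PAM3 around Mir29b-2. After 25HC the 2 groups overlapped there, at 3783 and 2423 against 3939 and 3055 bp. Mir675, the microRNA of the imprinted H19 transcript (chromosome 7), went the other way, from 1422 and 1544 to 0 and 0 bp. Mir146, a brake on TLR signalling, had 123 and 108 bp untreated and 975 and 758 with PAM3 without a gained bin, and 435 and 412 against 1695 and 2954 bp in the 25HC libraries. Its relative Mir146b had 3079 and 3063 against 3122 and 3087 bp. Mir147 had 797 and 1109 against 655 and 1074 bp and Mir21a 4790 and 4231 against 3933 and 5414 bp, and in both the groups overlapped. No test was run on these windows.
For each hairpin a mature strand is shown with its seed (bases 2 to 8, in capitals), by which a microRNA finds targets. The 29b-3p and 29c-3p strands share theirs, and those of 155-5p and 135b-3p are each different from it. The opposite strands 155-3p, 29b-2-5p and 29c-5p have other seeds and are not printed. For 135b only the 3p strand was available.
miR-155-5p: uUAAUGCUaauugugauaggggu
miR-29b-3p: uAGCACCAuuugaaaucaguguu
miR-29c-3p: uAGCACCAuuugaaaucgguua
miR-135b-3p: aUGUAGGGcuaaaagccauggg

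The label of the cells was checked against marker genes. All 15 macrophage identity genes had called length in all 4 libraries, with Adgre1 the 1 call. So did 11 of 13 dendritic cell, 8 of 14 neutrophil and 8 of 11 erythroid and megakaryocyte markers. Among lymphocyte markers 7 of 16 did, and among fibroblast and endothelial markers 4 of 12. Having called length therefore does not by itself tell cell types apart. Of 14 neutrophil markers, 6 were at 0 in all 4 (Ly6g, Cxcr2, Mpo, S100a9, Ngp and Retnlg), 0 rose and Elane fell (log2 -1.31, adjusted p = 0.0473, or 0.0793 with the block and up to 0.172, without untreated A). The summed called length of the neutrophil list was 31.2 and 27.8 kb untreated and 21.2 and 23.5 kb with PAM3 beside the rises of Lcn2 and Camp, which neutrophils also express. The part of neutrophils in those rises was not tested. Of 13 dendritic cell markers Siglech, Clec9a and Kmo fell (Clec9a with an adjusted p of 0.04, or 0.0645 with the block and up to 0.141 without untreated A), 8 tested members did not pass, and Cd209a and Ly6d were at 0. That list summed to 90.2 and 90.4 kb untreated and 63.6 and 82.9 kb with PAM3, and whether fewer dendritic cells or less acetylation per cell is behind these falls cannot be told apart in bulk samples. Of 16 lymphocyte markers 5 were at 0 in all 4 libraries (Cd3e, Cd8a, Pax5, Ncr1 and Gzma) and Cd2 fell from 1371 and 1467 bp to 0 and 0 (adjusted p = 0.0327, or 0.0683 with the block and up to 0.145, without untreated A), with sums of 17.0 and 24.4 kb untreated and 15.8 and 21.2 kb with PAM3. Fibroblast and endothelial (5 tested, 2 at unadjusted p under 0.05) and erythroid and megakaryocyte markers (9 tested, 0 at unadjusted p under 0.05) gave no call in limma, nor did 16 housekeeping genes (median -0.12, 2 at unadjusted p under 0.05). Of 15 genes silent in macrophages 11 were at 0 in all 4 libraries and 2 rose, Sftpc and Tnnt2 (limma, adjusted p = 0.0208 and 0.0213). With the block these values were 0.0501 and 0.0535, and neither gene held in all 9 fits. Their windows overlap those of Bmp1 and Lad1, but Tnnt2 also rose in its gene body alone (limma, adjusted p = 0.00689). Its flanked window went from 0 and 0 to 1287 and 1859 bp. Sftpc was not tested without flanks.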

How the data were processed

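Acetyl-H4 ChIP-seq was measured in 8 libraries of BMDM, grouped by the labels. Per the submitters' processing notes, GSNAP, MACS2 2.1.0 and the build GRCm38 (mm10) were used. Peak thresholds and control libraries: not given in the sources used here. Each deposited broadPeak list has 1 row per peak, called per library: coordinates, and the authors' score, fold ratio over background, −log10 p and −log10 q. In peaks that overlap between the libraries of a group, lengths correlated across peaks (Spearman rho of 0.681 to 0.780), but the authors' fold did so at 0.103 to 0.195 and −log10 q at 0.0856 to 0.165. The per-peak values may therefore not sit on their own peaks, and were used only in the alternatives that select peaks by −log10 q or −log10 p. The sets with the same number of peaks or the same covered length are among these, since they keep the peaks of highest −log10 p.

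Called length was summed from the coordinates with Python 3.11.15, pandas 2.3.3 and numpy 2.4.6. Genes (RefSeq, GRCm38.p6, without strand) were fitted in limma 3.58.1 (R 4.3.3; 4 groups, trended and robust empirical Bayes, Benjamini-Hochberg over all genes tested; pseudocount of 500 bp). The fit has 4 residual degrees of freedom. Mouse letters pair the libraries by label; deviations correlated by -0.0170 to 0.0304 between groups. Start windows and hairpins came from RefSeq tables that miss some entries. Scripts were tested on simulated data.

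Named genes were the 12 smallest p per direction with the same sign in both mice, every called list member or the 2 smallest p where none was called, the 12 genes with most gained and most lost bins, the 5 longest runs and a set of TLR pathway genes. Some picks are only counted, and 1 gene picked by this rule is not reported here. The comparison, members, lists and rules were chosen with earlier results of these data known. MicroRNA and start windows were added after seeing the data.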

Additional observations from a re-analysis of the deposited data

How the results depend on the processing

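The 276 rising and 288 falling genes became 85 and 83 with the mouse as a block, 129 and 192 without median subtraction, 141 and 139 with the same number of peaks per library, 2 and 0 with the same covered length (limma, 1684 at unadjusted p under 0.05), 0 and 0 with peaks kept at −log10 q of 5 or more (limma, 1237), and 0 and 0 in the 4 libraries alone (limma, 2520). Leaving out 1 library gave 76 (without PAM3 B) to 322 (without PAM3 A) rising and 28 (without untreated A) to 550 (without PAM3 A) falling genes. Bins gained and lost were 2694 and 4129 when called at 1000 bp and 3528 and 7911 at that −log10 q, and ran from 8299 to 18262 and from 10857 to 15447 without 1 library.

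Some log2 changes of named genes turned sign. Most did so in sets that choose peaks by −log10 q or −log10 p, values that may not sit on their own peaks. Such sets cannot decide whether a direction is stable. With peaks kept by −log10 q they were -1.16 for Traf6, -0.0913 for Trem1, -0.66 for Zeb2, -0.71 for Hif1a, -0.53 for Adora2a, -2.05 for Ppia, -0.42 for Foxp1, 0.21 for Arhgap26, 0.28 for Tbc1d4, -0.62 for Tlr1, -0.30 for Tlr6, 0.62 for Il1b and -0.44 for Il6. With equal covered length they were -0.35 for Bcl2a1d, -0.15 for Foxp1 and 0.21 for Psd3, with equal peak numbers -0.0209 for Traf6, and without flanks 0.0398 for Gpx1. Il1b ran from -0.40 to 0.17 without 1 library. The cause was not tested. Depth is unknown, so a peak's absence cannot be set against read number.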
